A study of Homo sapiens with 9 samples.

Results

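A set of 34 microRNA (miRNA) probes read lowest in IGROV-1/Pt1, a cisplatin-resistant ovarian carcinoma line, among 705 probes that passed a filter on dim signal and 1145 on the bead array. IGROV-1 is a human ovarian carcinoma cell line that is sensitive to cisplatin. IGROV-1/Pt1 was derived from it by treatment with cisplatin and IGROV-1/OHP, an oxaliplatin-resistant line, by treatment with oxaliplatin, and the labels give no dose, time or clonal origin for either. Each line had 3 arrays (9 in all), which the series describes as independently prepared samples of growing cells, and every array was hybridised with biotin-labelled total RNA. All 3 lines share the IGROV-1 background, and each kind of resistance is represented by 1 line, so a trait of resistance and a trait of that line cannot be told apart.

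The 34 probes were chosen by the measured intensities themselves. A probe was kept when it reached an intensity of 167 on at least 3 of the 9 arrays and its highest IGROV-1/Pt1 array lay below the lowest of the 6 IGROV-1/OHP and parental arrays. The lower of the IGROV-1/OHP and parental mean log2 intensities, minus the IGROV-1/Pt1 mean, is called the gap here. It had to be at least 0.5 (1.41-fold) and larger than the absolute difference between the IGROV-1/OHP and parental means. These terms use all 3 contrasts between the lines. The levels, gaps and line differences of the 34 probes are therefore descriptions, without a test. Probes are numbered by gap, with probe 1 having the largest.

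MiRNAs are short RNAs, cut from hairpin precursors by Drosha and Dicer, that guide Argonaute proteins to partly complementary sites in messenger RNAs and lower their translation and stability. Pairing rests mainly on the seed near the 5′ end, and miRNAs with a common seed share many targets. Several miRNAs are often cut from 1 transcript, so neighbours in the genome can change together. In ovarian carcinoma miRNAs are studied for their part in epithelial state, cell survival and the response to platinum drugs, which bind DNA and form adducts.

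The probes carry Illumina identifiers. The sources used here do not pair them with miRNA names or sequences, and the reference tables listed 0 of the 34. No miRNA, seed, family or genomic position is therefore given, and whether several of the 34 probes read 1 hairpin or near-identical miRNAs is unknown. The labelled cell type could not be checked against marker miRNAs for the same reason. Intensities of different probes do not compare amounts of miRNA, because probes differ in binding and labelling. In total RNA from a culture, fewer cells that express a miRNA and less of it per cell cannot be told apart.

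Probe 1, ILMN_3168483, was bright in both other lines and near the dim end of the scale in IGROV-1/Pt1. Its intensity was 330.5, 396 and 254 on the IGROV-1/Pt1 arrays, against 25597, 26466 and 24113 on the IGROV-1/OHP arrays and 23952, 24445 and 25965 on the parental arrays. The dimmest array of the other lines was 60.5 times as bright as the brightest IGROV-1/Pt1 array, and the IGROV-1/OHP and parental arrays overlapped. The IGROV-1/Pt1 mean was 327 ± 70.9, against 25392 ± 1189.6 in IGROV-1/OHP and 24787 ± 1049 in parental IGROV-1 (SD, n = 3 each). The log2 difference was -6.30 from IGROV-1/OHP (78.9-fold lower) and -6.27 from parental cells (77.0-fold lower), each with a limma standard error of 0.16. All 3 IGROV-1/Pt1 arrays remained above the filter level, so these folds use the deposited intensities and no bound. The filter level was not compared with detection p-values, and how background was corrected is not given. With the mode of the intensities, 83.4, taken off and an offset of 50, the gap was 6.43 in place of 6.27. Leaving out each array in turn gave a gap of 6.10 to 6.42.

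Probe 2, ILMN_3167344, showed the next largest gap, with the widest spread of the 34 probes within IGROV-1/Pt1. It read 297, 347 and 1157 on the IGROV-1/Pt1 arrays, against 6589.9, 3718 and 9483 in IGROV-1/OHP and 8228, 7941 and 5358 in parental IGROV-1. Replicate 3 of IGROV-1/Pt1 stood above the other two of its line and still below every array of the other lines, of which the dimmest was 3.21 times as bright. The log2 difference was -3.64 from IGROV-1/OHP (12.5-fold lower) and -3.84 from parental cells (14.3-fold lower), with a standard error of 0.56 for each. Without IGROV-1/Pt1 replicate 3 the gap was 4.26 in place of 3.64.

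Below these, 4 probes (3, 5, 6 and 7) had a gap between 4-fold and 8-fold, and probe 4 had only a bound. Probe 3 read 322, 528 and 369.5 in IGROV-1/Pt1, against 2944, 2053 and 2406 in IGROV-1/OHP and 1724, 2846 and 2679 in parental IGROV-1. It was 6.14-fold lower than in IGROV-1/OHP and 5.94-fold lower than in parental IGROV-1, which overlapped each other. Probe 5 had a like form at a higher intensity, with 656, 637 and 792 in IGROV-1/Pt1, against 3974, 2679 and 4296 in IGROV-1/OHP and 2536, 3498 and 3597 in parental IGROV-1. The IGROV-1/Pt1 arrays of probe 5 lay close together, at 695 ± 84.7, against 3649 ± 856 in IGROV-1/OHP and 3210.2 ± 586 in parental IGROV-1 (SD, n = 3 each).

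Probe 4 was below the filter level on every IGROV-1/Pt1 array, so only a lower bound can be given. It read 157, 139 and 103 there, against 548, 1154 and 664 in IGROV-1/OHP and 851, 319 and 915 in parental IGROV-1. Taken against the filter level it was at least 4.48-fold lower in IGROV-1/Pt1 than in IGROV-1/OHP and at least 3.76-fold lower than in parental IGROV-1. Parental replicate 2 was the dimmest of the other arrays and was 2.03 times as bright as the brightest IGROV-1/Pt1 array.

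Probes 6 and 7 had 3 separate levels, lowest in IGROV-1/Pt1, intermediate in IGROV-1/OHP and highest in parental IGROV-1. Probe 6 read 329, 327 and 540.0 in IGROV-1/Pt1, against 2219, 1065 and 2204 in IGROV-1/OHP and 4436, 4190.0 and 3441 in parental IGROV-1. Relative to parental cells its level was 9.69% in IGROV-1/Pt1 and 43.3% in IGROV-1/OHP. Probe 7 read 858, 883 and 718 in IGROV-1/Pt1, against 4133, 3038 and 3038 in IGROV-1/OHP and 5779, 5218 and 7021 in parental IGROV-1. This was 13.7% of the parental level in IGROV-1/Pt1 and 56.5% in IGROV-1/OHP. In both probes no array of one line overlapped those of another.

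**Figure D1:**
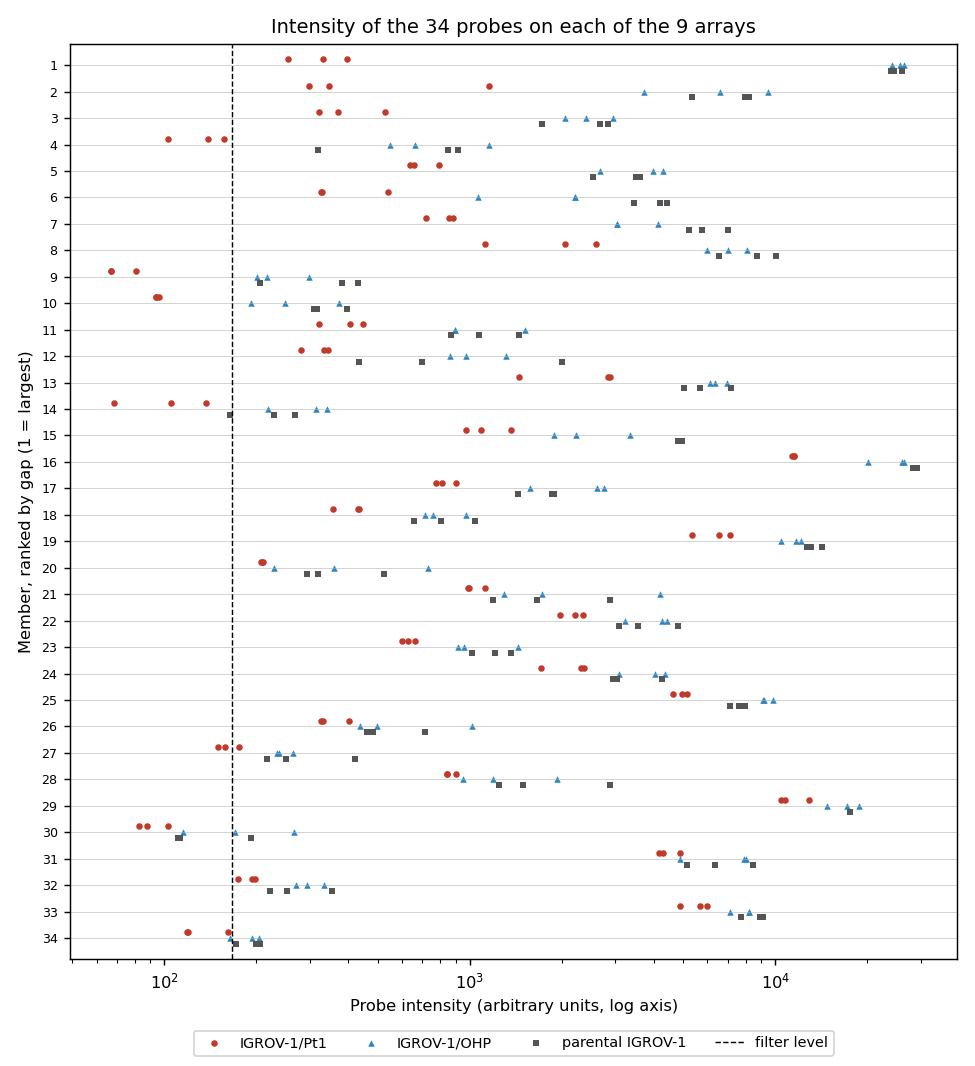
Probe intensity on a log axis for the 34 probes ranked by gap, with 1 point per array (circles IGROV-1/Pt1, triangles IGROV-1/OHP, squares parental IGROV-1, 3 arrays each) and a dashed line at the filter level of 167. Probe 1 reads 254 to 396 in IGROV-1/Pt1 and 23952 to 26466 in the other lines, and from probe 18 down the gaps are under 2-fold.

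The gaps fell off steeply after the first probes. A probe below the filter level on all 3 IGROV-1/Pt1 arrays is counted here at its bound, with the filter level in place of its IGROV-1/Pt1 mean. Of the 34, 2 had a gap of at least 8-fold, 4 of 4-fold to 8-fold and 8 of 2-fold to 4-fold, and 20 were not shown to reach 2-fold. With these bounds the median gap of the 34 was 0.80 on the log2 scale. At the measured intensities, without bounds, it was 1.02, where the median over all 705 tested probes was -0.08. The median log2 difference of IGROV-1/Pt1 was -1.05 from IGROV-1/OHP and -1.07 from parental cells, against -0.04 and -0.02 over all tested probes. The lowest array of the other lines was at least 2 times as bright as the highest IGROV-1/Pt1 array at 9 probes and less than 1.2 times as bright at 11.

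The 34 probes covered most of the intensity scale. In IGROV-1/Pt1 their arrays ran from 66.7 to 12869, with a median of 614, and in the other lines from 111 to 29149, with a median of 2211. The lower of the IGROV-1/OHP and parental mean intensities was 10000 or more at 4 probes, 1000 to 10000 at 19 and under 1000 at 11. These were 2.96%, 9.09% and 3.05% of the tested probes in each class. The median gap was 0.96, 1.10 and 0.60 in these classes, with the 6 probes that have only a bound, all in the dimmest class, at that bound. In the brightest class, probe 1 stood apart, and the other 3 probes had gaps of 2.09-fold, 1.81-fold and 1.49-fold.

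Those 3 bright probes read far above the filter level on all 9 arrays. Probe 16 read 11380.4, 11516 and 11516 in IGROV-1/Pt1, against 26326, 20084 and 25965 in IGROV-1/OHP and 28152, 28295 and 29149 in parental IGROV-1. Probe 19 read 6533, 7124 and 5358 in IGROV-1/Pt1, against 11671, 12138 and 10482 in IGROV-1/OHP and 13096, 12715 and 14202 in parental IGROV-1. Probe 29 averaged 11353 ± 1323 in IGROV-1/Pt1, 16912 ± 2009 in IGROV-1/OHP and 17577 in parental IGROV-1 (SD, n = 3 each), where the 3 parental arrays held the same value. Equal values on different arrays occur because the deposited arrays share nearly the same set of ranked intensities.

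At the dim end, 27 of the 34 probes reached the filter level on all 3 IGROV-1/Pt1 arrays, 1 on some of them and 6 on none. The 6 are probes 4, 9, 10, 14, 30 and 34, and they passed the filter only through the other lines. Probe 9 read 66.7, 80.5 and 66.7 in IGROV-1/Pt1, against 297, 201 and 217 in IGROV-1/OHP and 382, 206 and 432 in parental IGROV-1. Against the filter level it was at least 1.41-fold below IGROV-1/OHP and at least 1.94-fold below parental cells. Probe 10 was at least 1.56-fold below IGROV-1/OHP and 2.03-fold below parental cells, and probe 14 at least 1.71-fold below IGROV-1/OHP and 1.29-fold below parental cells. Probe 34 was at least 1.12-fold below IGROV-1/OHP and 1.15-fold below parental cells. For probe 30 the parental mean itself was under the level, and no bound against parental cells can be given. With the 6 probes at their bounds the median gap of the 34 was 0.80.

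In a limma fit of log2 intensity over all 705 tested probes, a probe was called where its Benjamini-Hochberg adjusted p was under 0.05. By this, 25 of the 34 were called lower in IGROV-1/Pt1 than in parental IGROV-1, where 7.09% of all tested probes were. Against IGROV-1/OHP 25 were called lower, beside 8.65% of all tested probes, and 23 were called in both contrasts, beside 4.54%. The same arrays chose the probes, so nothing is read from these shares. The 23 are 67.6% of the 34 probes and 71.9% of the 32 probes that limma alone would place lower than both other lines. Of the rest, 2 were called against parental cells only, 2 against IGROV-1/OHP only and 7 in neither. Of the 14 probes with a gap of 2-fold or more, probe 4 at its bound, 13 were called in both, and the exception was probe 12.

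Probe 12 was separated from both other lines but called in neither contrast. It read 281, 334 and 344 in IGROV-1/Pt1, against 862, 1311 and 970.5 in IGROV-1/OHP and 2001, 433 and 699 in parental IGROV-1. Parental replicate 1 stood above every other array and replicate 2 was nearest to IGROV-1/Pt1. The log2 difference of -1.41 from parental cells had a standard error of 0.50. Over all tested probes, the contrast of IGROV-1/Pt1 with IGROV-1/OHP gave 61 lower and 56 higher in IGROV-1/Pt1, with 48 and 77 after cyclic loess.

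**Figure D2:**
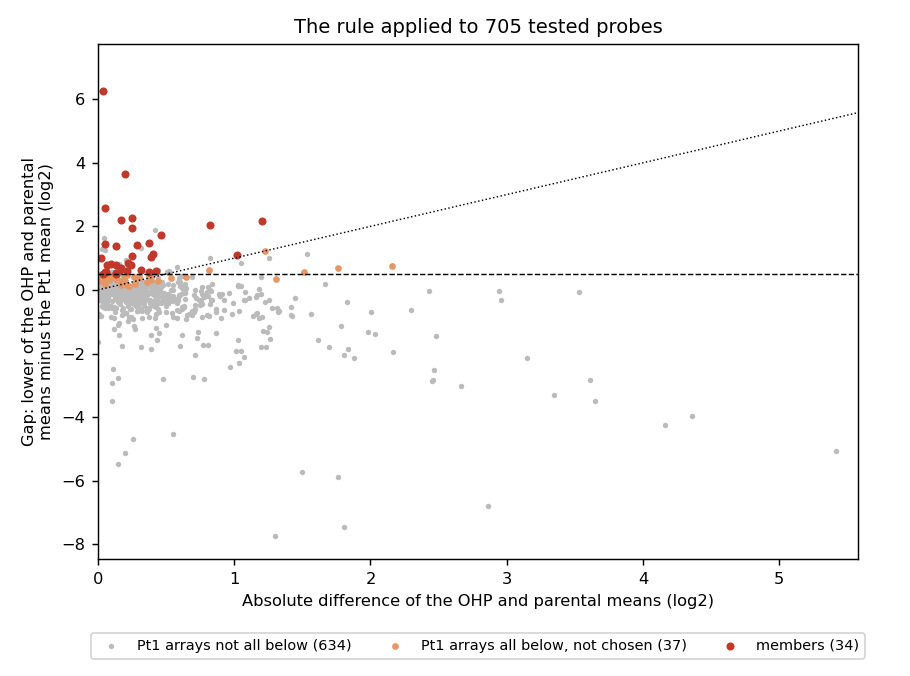
The gap (log2) against the absolute difference of the IGROV-1/OHP and parental means (log2) for the 705 tested probes, 1 point each. The dashed line marks the gap of 0.5 and the dotted line a gap equal to the difference, and the 34 chosen probes lie above both, with probe 1 at 6.27.

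The terms of the rule removed different probes. A gap of 0.5 or more was found at 66 tested probes, and at 71 all IGROV-1/Pt1 arrays lay below all others. Both terms held at 39, of which 5 failed because IGROV-1/OHP and parental cells differed by more than the gap. In 3 of these 5, parental replicate 1 was over 4 times as bright as both other parental arrays. Just inside the threshold lay gaps of 0.51, 0.51 and 0.53, and just outside it, among probes that met the other terms, 0.47, 0.46 and 0.44.

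A further 24 probes had the gap and met the term on the difference but had at least 1 array out of place, with a median gap of 0.65. In 15 of them a single array of the other lines lay at or below the highest IGROV-1/Pt1 array. IGROV-1/OHP replicate 3 was such an array in 13 of the 24, and each of the other 5 arrays in 3 to 6. In 17 of the 24, IGROV-1/OHP replicate 2 was the brightest of its line, and in 17 replicate 3 was the dimmest. Over all tested probes these arrays were so at 39.1% and 31.8%. The 24 were picked for having an array out of place, so nothing is read from these counts. The largest gap among the 24 was 1.88. That probe read 1096, 1551 and 1182 in IGROV-1/Pt1, against 4867, 16831 and 1223 in IGROV-1/OHP and 4190.0, 13886 and 4133 in parental IGROV-1. Whether these swings come from the cultures or the arrays was not tested.

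Between IGROV-1/OHP and parental cells most of the 34 probes differed little. The rule asks only that this difference be smaller than the gap. The IGROV-1/OHP mean was above the parental mean at 17 probes and below it at 17. The median log2 difference was 0.01, and the median absolute difference was 0.21, against 0.29 over all tested probes. The differences ran from -1.21 at probe 6 to 0.40 at probe 14. At 23 probes the lines lay within 1.2-fold of each other, and at 2, probes 6 and 15, they were at least 2-fold apart. Limma called 2 of the 34 lower in IGROV-1/OHP, probes 7 and 15, beside 5.39% of all tested probes. It called 1 higher, probe 25, beside 7.80%.

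The IGROV-1/OHP arrays lay wholly below the parental arrays at 5 of the 34 probes, beside 12.5% of all tested probes, and wholly above them at 1, beside 20.6%. The rule bounds this difference by the gap, so nothing is read from these shares. Leaving out an array can only keep or raise such counts. With 1 array of these lines left out, they were separate at 7 to 10 of the 34 probes in place of 6, and at 38.7% to 47.9% of all tested probes in place of 33.0%. The highest, 10 of the 34 (29.4%), beside 47.9% of all tested probes, came without IGROV-1/OHP replicate 2. The 5 probes are 6, 7, 15, 16 and 19. Their order of levels, IGROV-1/Pt1, IGROV-1/OHP, parental cells from low to high, follows from the rule and from this choice.

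Probe 15 read 1086, 970.5 and 1362 in IGROV-1/Pt1, against 2235, 1884 and 3336 in IGROV-1/OHP and 4816, 4958 and 4894 in parental IGROV-1. Its level relative to parental cells was 23.1% in IGROV-1/Pt1 and 49.4% in IGROV-1/OHP. Probes 16 and 19 had shallower steps, with probe 16 at 40.2% in IGROV-1/Pt1 and 83.9% in IGROV-1/OHP and probe 19 at 47.2% and 85.6% in the same lines. Limma did not call the difference between IGROV-1/OHP and parental cells at probe 16 or probe 19.

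Probe 25 had IGROV-1/OHP and parental cells in the opposite order, with IGROV-1/OHP highest. It read 4958, 4624 and 5132 in IGROV-1/Pt1, against 9187, 9138 and 9818 in IGROV-1/OHP and 7621, 7101 and 7941 in parental IGROV-1. The arrays of each line lay close together and no lines overlapped. The log2 difference was -0.94 from IGROV-1/OHP and -0.62 from parental cells, each with a standard error of 0.08.

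**Figure D3:**
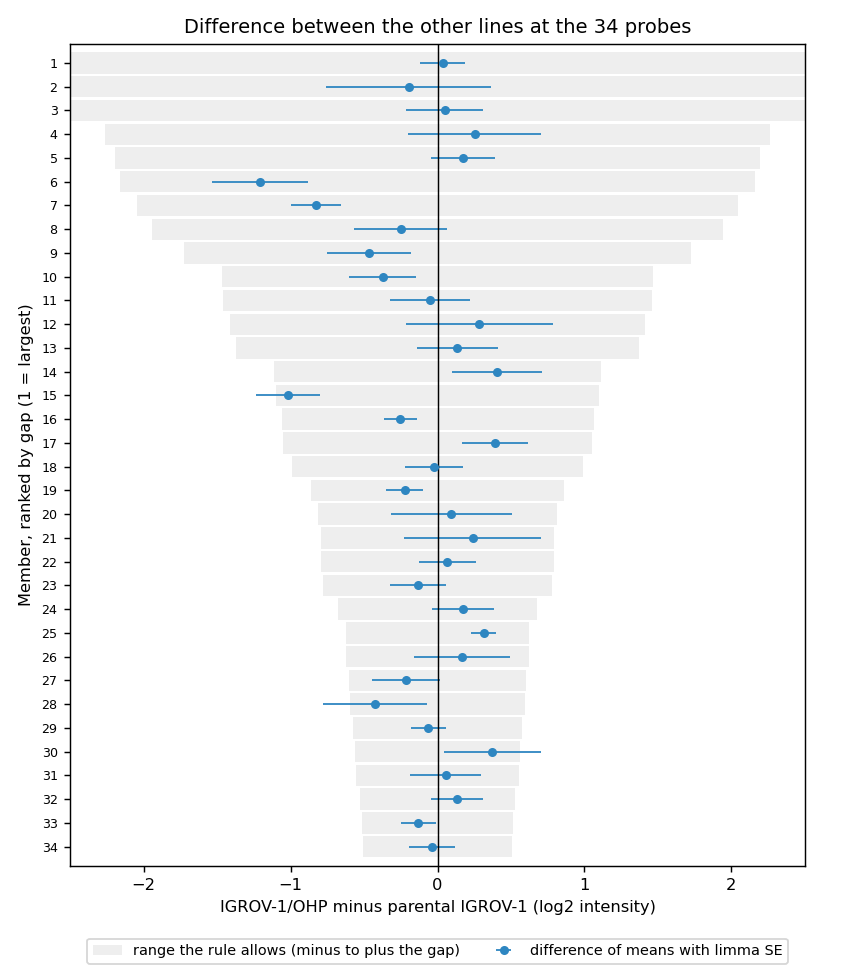
Difference of mean log2 intensity, IGROV-1/OHP minus parental IGROV-1, for the 34 probes ranked by gap (points, with the limma standard error as bars, n = 3 arrays a line). Grey bands show the range the rule allows and run past the axis for probes 1 to 3; probes 6, 7 and 15 lie farthest below 0.

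Replicates of the 34 probes lay closer together in IGROV-1/Pt1 than in the other lines by the median SD, a difference that was not tested. The median SD of log2 intensity was 0.16 in IGROV-1/Pt1, against 0.30 in IGROV-1/OHP and 0.32 in parental IGROV-1. Over all 705 tested probes these medians were 0.16, 0.25 and 0.22. The rule used these same replicate values, so nothing is read from the comparison with all tested probes. At 19 probes IGROV-1/Pt1 had the smallest SD of the 3 lines. A range of at least 2-fold among replicates was seen at 2 of the 34 probes in IGROV-1/Pt1, 8 in IGROV-1/OHP and 5 in parental IGROV-1. These are 5.88%, 23.5% and 14.7% of the 34, beside 8.79%, 20.3% and 11.1% of all tested probes in the same lines.

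Single arrays stood out within their lines. IGROV-1/OHP replicate 2 was the dimmest of its line at 20 of the 34 probes (58.8%) and the brightest at 10 (29.4%). Over all tested probes it was dimmest at 45.1% and brightest at 39.1%. Parental replicate 3 was the brightest of its line at 20 probes (58.8%), where it was so at 39.1% of all tested probes. Parental replicate 1 was the dimmest of its line at 15 probes (44.1%). Over all tested probes it was so at 52.3%, the largest such share of any array. Replicate 2 of IGROV-1/Pt1 was the brightest of its line at 15 probes (44.1%), where it was so at 25.2% of all tested probes. The rule used these same values, so nothing is read from the differences between these shares.

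The 10 probes on which IGROV-1/OHP replicate 2 was brightest had a median log2 range of 0.89 among the IGROV-1/OHP arrays. The 20 on which it was dimmest had a median range of 0.54. Probe 21 is an example of the first kind, with 993, 1118 and 986 in IGROV-1/Pt1, against 1724, 4190.0 and 1294 in IGROV-1/OHP and 1662, 2870.2 and 1189 in parental IGROV-1. Replicate 2 was the brightest array of both other lines there. Probe 20 had the same form, with 208, 210.0 and 208 in IGROV-1/Pt1, against 359.6, 728 and 228 in IGROV-1/OHP and 293, 525 and 319 in parental IGROV-1. Of the 7 probes called in neither contrast, 5 were among these 10 and 2 among the 20. The groups were formed from these same values, and their ranges and calls were not set beside those of all tested probes. Nothing is therefore read from the ranges or from these counts.

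By the SD of log2 intensity, probes 8 and 13 varied most within IGROV-1/Pt1 after probe 2, with replicate 3 farthest from the others. Probe 8 read 2053, 2583 and 1118 in IGROV-1/Pt1, against 8102, 7021 and 5968 in IGROV-1/OHP and 10072, 6533 and 8703 in parental IGROV-1. Probe 13 read 2870.2, 2846 and 1448 in IGROV-1/Pt1, against 6975, 6122 and 6362 in IGROV-1/OHP and 5021, 5689 and 7193 in parental IGROV-1. Replicate 3 was low on both and high on probe 2, so it did not shift these probes in 1 direction.

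**Figure D4:**
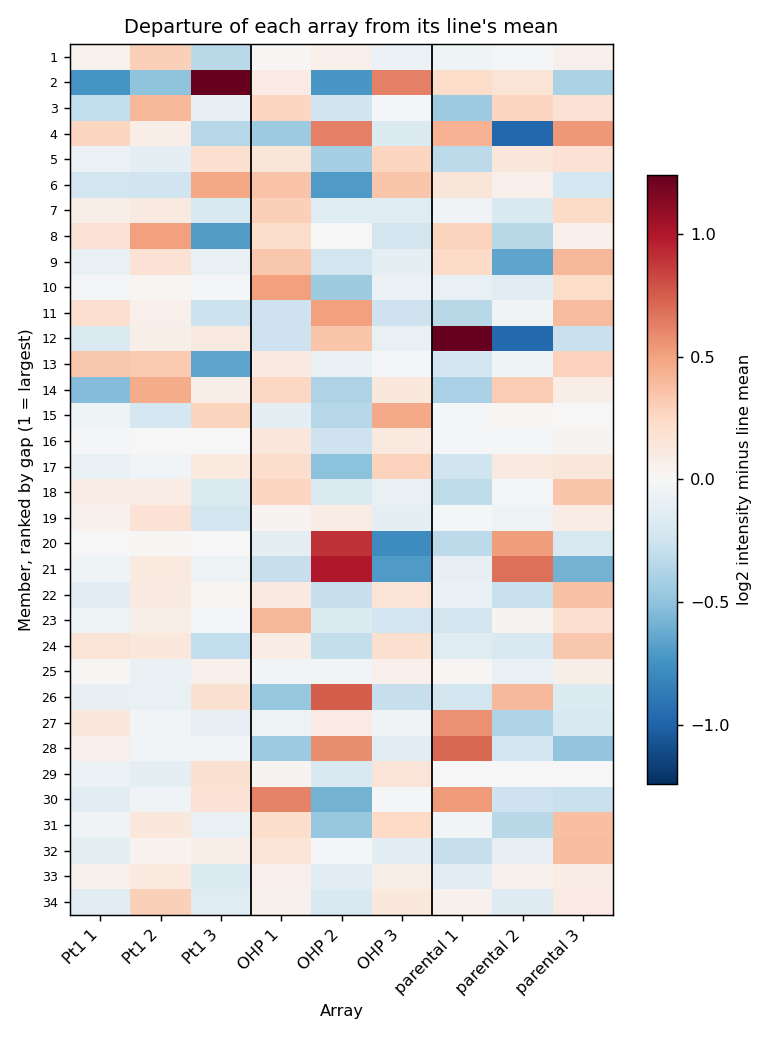
Log2 intensity of each array minus the mean of its line for the 34 probes ranked by gap (rows) and the 9 arrays (columns: Pt1, OHP and parental, replicates 1 to 3); red is above and blue below the line's mean. The Pt1 columns are palest apart from a few probes such as 2, 8 and 13, and OHP 2 is blue on 20 rows as the dimmest of its line and red as the brightest on 10.

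Which probes meet the rule depended on single arrays mainly among the smaller gaps. Leaving out 1 array gave between 31 and 47 probes, of which 28 to 33 were among the 34. An omission cannot undo the separation of a chosen probe. A probe could thus be lost only through the gap, the difference or the filter. Probes with large gaps were therefore likely to be kept, and nothing is read from their being kept. The largest set, 47 probes, came without IGROV-1/Pt1 replicate 2, which let 14 other probes in, and 14 also entered without IGROV-1/OHP replicate 3. In all, 22 of the 34 probes were kept whichever array was left out, including 12 of the 14 with a gap of 2-fold or more, probe 4 at its bound. Probes 1 to 10 were kept under each of the 9 omissions.

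Cyclic loess kept 27 of the 34 probes and added 1. A second quantile normalization and median scaling kept all 34, but the deposited arrays already share nearly the same ranked intensities, so these steps could move little. Of the first 17 probes, 16 were kept after cyclic loess, and all of probes 1 to 10 were. Setting intensities below the filter level to that level kept 30 probes, and asking for the level on all 9 arrays kept 27, of which 7 were among probes 1 to 10. The rule turned to the other ends chose 43 probes highest in IGROV-1/Pt1, with 18 lowest and 20 highest in IGROV-1/OHP and 33 lowest and 17 highest in parental IGROV-1. The differences between these counts were not tested.

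**Figure D5:**
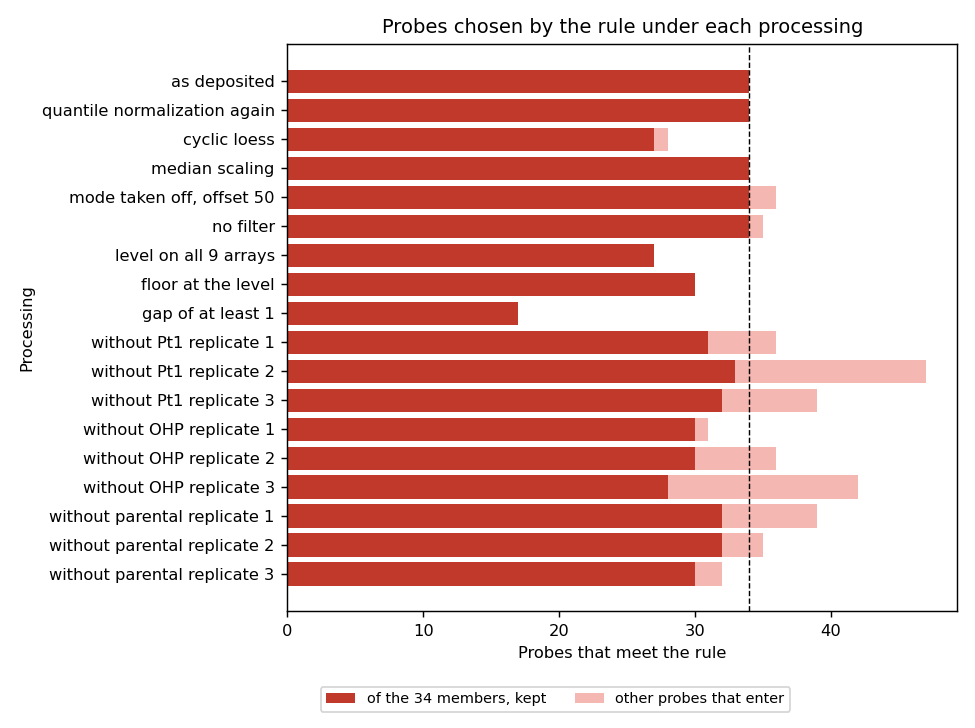
Number of probes that meet the rule under each processing, as bars split into those among the 34 (dark) and other probes that enter (light), with a dashed line at 34. The count runs from 17 with a gap of at least 1 to 47 without Pt1 replicate 2.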

How the data were processed

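MiRNA probes were measured on a 1-colour Illumina bead array in 9 samples of 3 lines. The authors deposited linear probe intensities, and the submitters' processing notes name BeadStudio. How they were normalized and background-corrected is not given in the sources used here. At every rank the sorted arrays lay within 2.69% of each other, the form quantile normalization leaves, so they were used without a further step, and a change in total miRNA would not show. A second table, with 18 columns (signal and detection p), was set aside because its column names match no sample label.

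The filter, the rule, the 34 members and the 33 miRNA lists were chosen with earlier results of these data known. The lists could not be matched to probes and gave no result. The rule for named probes limits printed identifiers to the first 2 by gap, and the other probes singled out were chosen after their values were seen. Log2 intensities without a pseudocount entered a limma fit (limma 3.58.1, R 4.3.3) of 3 line means over 9 arrays (6 residual degrees of freedom), two-sided, with Benjamini-Hochberg adjustment over 705 probes and a threshold of 0.05. The fit and the rule were run on simulated data with planted changes, as a check of the code. That check gives no error rate for these data. Precision is limited by 3 arrays per line. The alternatives cover normalization, background, filter, floor, gap, variance prior, array weights, replicate block and each array left out.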

Additional observations from a re-analysis of the deposited data

Results flagged for a closer look

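At probe 25 the arrays of the derived lines lay on opposite sides of the parental arrays. The log2 difference from parental cells was -0.62 in IGROV-1/Pt1 and 0.31 in IGROV-1/OHP, with all 3 arrays of each line beyond the parental range. Limma called the probe in all 3 contrasts, but the same contrasts chose it, so nothing is read from these calls.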

How the results depend on the processing

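The number of probes that meet the rule was 34 as deposited, 17 with a gap of at least 1 asked for (14 with dim probes at their bound), and 31 to 47 with 1 array left out. It lay between 27 and 36 under the other settings of normalization, background, filter and floor. The gap of ILMN_3168483 was 6.10 to 6.43 and that of ILMN_3167344 3.28 to 4.26 under all settings. The median gap of the 34 probes was 0.80 to 1.06. Recomputing that median, and leaving out arrays for the overlap of IGROV-1/OHP and parental cells, were chosen after seeing the data. Among all tested probes, limma called 50 lower in IGROV-1/Pt1 than in parental cells (38 to 60 with 1 array left out, 104 with array weights). It called 61 lower in IGROV-1/Pt1 than in IGROV-1/OHP, 32 to 71 with 1 array left out and 116 with array weights. The lowest counts were 32, 33 and 34 without IGROV-1/Pt1 replicate 1, 2 or 3 and 38 without IGROV-1/OHP replicate 1. The highest was 71 without IGROV-1/OHP replicate 2, and each of these fits lacks 1 array. Between IGROV-1/OHP and parental cells 93 probes were called, 60 to 101 with 1 array left out, where 60 was without IGROV-1/OHP replicate 1. These split into 38 lower and 55 higher in IGROV-1/OHP, and 49 and 47 after cyclic loess. The IGROV-1/OHP and parental arrays were separate at 6 of the 34 probes, beside 33.0% of all tested probes, and at 7 to 10, beside 38.7% to 47.9%, with 1 of these arrays left out, which can only keep or raise the count. With the replicate block, the calls lower in IGROV-1/Pt1 than in IGROV-1/OHP fell to 35, those lower than in parental cells were 45, and 67 probes were called between IGROV-1/OHP and parental cells. The labels give no pairing by number, so the numbers were taken as names. Same-numbered arrays deviated together at a correlation over 0.1 in 3 of 9 pairs (-0.27 to 0.43). The highest were 0.43 and 0.33, between IGROV-1/Pt1 and IGROV-1/OHP at replicates 3 and 2. Whether same-numbered arrays share an effect was not tested. The cause of these shifts was not tested. At 6 of the 34 probes the size of the gap has at most a bound, since they lay below the filter level on every IGROV-1/Pt1 array.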
